A study of Mus musculus with 12 samples.

Results

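The insulin-like growth factor (IGF) genes of 3T3 cells, a mouse fibroblast cell line, were followed in 12 bulk RNA libraries. The members were the rows of the count table named for the ligands Igf1 and Igf2, the receptors Igf1r and Igf2r, and the binding proteins Igfbp2, Igfbp3, Igfbp4, Igfbp5, Igfbp6 and Igfbp7. All 10 were found among 32544 rows, and 9 passed the filter on low counts, Igfbp2 being the exception. The study has 4 groups of 3 libraries. One group was untreated 3T3 cells. The others were 3T3 cells given, for 24 h, extracellular vesicles (EVs, small membrane particles that cells shed) of MDA-MB-468, an established human breast cancer cell line. The donors were MDA-MB-468 controls (shCon), MDA-MB-468 with CRIPTO knocked down (shCr) or MDA-MB-468 overexpressing CRIPTO (CrOE). CRIPTO is a cell-surface co-receptor of the TGF-beta family, and the comparison asks how its level in the donor cells bears on fibroblasts that receive their EVs. The labels name no genetic change in the recipient cells of any group. No group is labelled as a separate control for overexpression or as mock-treated. Between CrOE and shCon EVs, CRIPTO level and other changes to the donor cells therefore cannot be told apart. Against untreated cells, the EVs and their handling cannot be told apart either. Nothing in the labels says that libraries came from separate cultures, so p-values measure the spread between these libraries, which may be technical.

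IGF1 and IGF2 are secreted hormones that drive growth and survival mainly through the receptor tyrosine kinase IGF1R. IGF2R binds IGF2 without a kinase of its own, carries it to the lysosome, and also sorts lysosomal enzymes. The binding proteins hold IGFs outside the cell, prolonging their life or keeping them from the receptor, until proteases release them. Fibroblasts are a main local source of these secreted factors in connective tissue and in tumour stroma.

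Total estimated counts were 25960054 to 37774020 per library, and 3 counts in a library were taken as the limit of detection. Tdgf1, the mouse gene of CRIPTO, had 0 to 3 counts per library, so no difference in it was detectable. The donor cells' CRIPTO was not analysed here. Log2 levels correlated at 0.986 to 0.994 across genes within a group, and at 0.900 to 0.921 between the CrOE libraries and the other groups; genes are not independent replicates. The CrOE libraries therefore stood apart as a whole. Their columns carry the protein's name instead of CrOE and were matched by elimination. Fibroblast markers were expressed in every library, 8 of 8 above 1 CPM in every group. CPM is the count of a gene scaled to a fixed library total. The summed level of the 8 was 15221 to 16208 CPM in untreated, 17308 to 17480 CPM in shCon EV, 11851 to 13528 CPM in shCr EV and 4763 to 4951 CPM in CrOE EV libraries. All 8 fell after CrOE EVs. Immune markers, mostly Lyz2, summed to 46.2 to 56.8, 79.7 to 90.1, 127 to 191 and 3.90 to 4.69 CPM in the same order. Adipocyte markers, mostly Fabp4, summed to 21.4 to 26.9, 13.9 to 14.4, 11.0 to 16.6 and 1.81 to 2.13 CPM, with Lep at 0. Epithelial markers summed to at most 2.09 CPM, with Epcam at 0, endothelial markers to at most 2.56 CPM and skeletal muscle markers to at most 1.33 CPM. Mitochondrial transcripts took 0.495% to 1.70% of counts. The part of these markers in the differences below was not tested.

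Most of the IGF genes were lower, and Igf2r was higher, in cells given EVs of any donor line than in untreated cells. Both ligands, Igf1r, Igfbp4, Igfbp5, Igfbp6 and Igfbp7 were lowest with CrOE EVs, where Igf1 was close to the limit of detection. Igfbp3 was the exception among the binding proteins tested. Differences were tested with edgeR's quasi-likelihood F-test on all 12 libraries, with Benjamini-Hochberg adjustment over the 14279 genes tested and a call at an adjusted p-value under 0.05. By the F-test among the 4 groups all 9 members tested were called, as were 81.3% of all genes. With shCon EVs, 1 member was higher than in untreated cells and 6 were lower, when 18% of all genes were called higher and 20.2% lower (38.1% in all). With shCr EVs, 1 was higher and 5 were lower, when 18.4% of genes were higher and 18.8% lower (37.3% in all). With CrOE EVs, 1 was higher and 8 were lower, when 36.7% of genes were higher and 37% lower (73.7% in all). The member median was -0.52, -0.60 and -2.41 on the log2 scale in these comparisons, and the medians of all genes tested were 0.0069, 0.020 and 0.0078.

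Set against each other, the EV types differed little between shCr and shCon and much between CrOE and both. Between shCr and shCon EVs, 1 of 9 members was lower and none was higher, when 3.51% of genes were lower and 5.22% higher (8.73% in all). CrOE EVs against shCon EVs gave 1 member higher and 8 lower, when 36.5% of genes were higher and 36.1% lower (72.6% in all). CrOE EVs against shCr EVs gave the same counts, when 36.9% of genes were higher and 37% lower (73.9% in all). Calls with a fold change of at least 2 as well numbered 2 members with shCon EVs (6.04% of genes) and 2 with shCr EVs (6.28%) against untreated cells, and 6 with CrOE EVs (29.7%). They numbered 0 members between shCr and shCon EVs (0.756% of genes), 6 between CrOE and shCon EVs (27.2%) and 5 between CrOE and shCr EVs (29.6%). Since most genes were called after CrOE EVs, a call there sets no member apart. In bulk RNA, fewer cells that express a gene and less of its RNA per cell cannot be told apart.

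**Figure D1:**
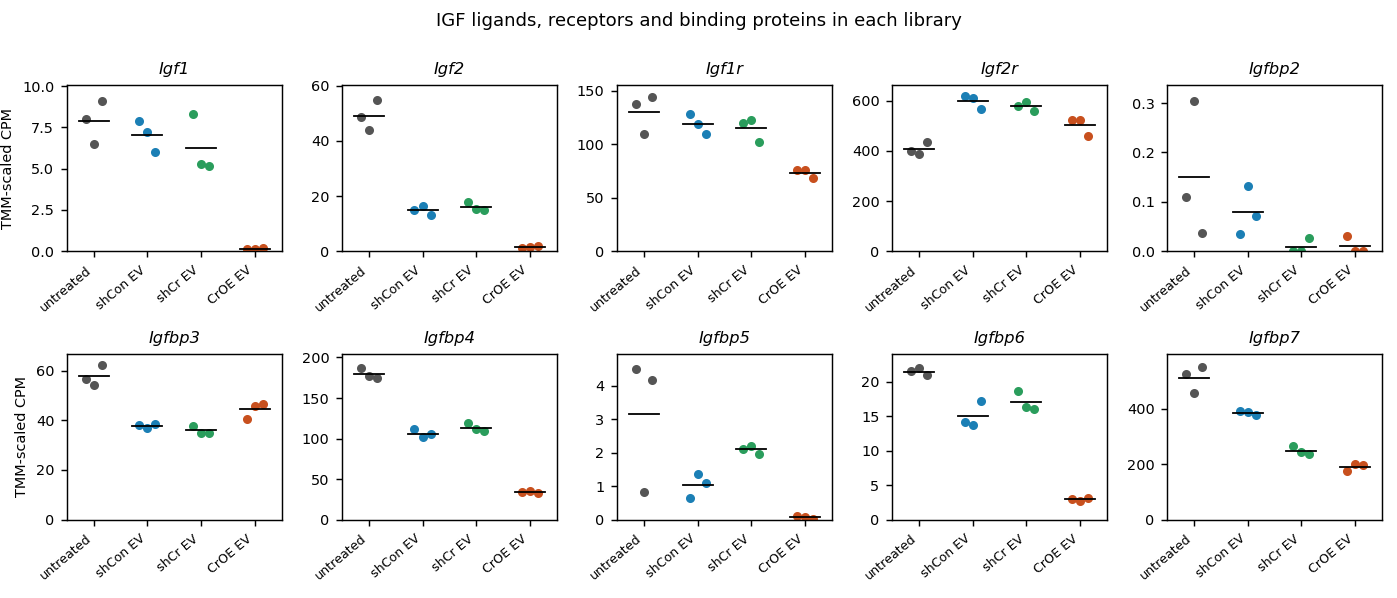
Level of each gene in each library, in TMM-scaled CPM (vertical axis, own scale per panel, from 0), by group (horizontal axis). Points are libraries and lines are group means of 3 libraries; Igf1, Igf2, Igfbp4 and Igfbp6 sit lowest in all 3 CrOE libraries, while Igf2r is above untreated cells in every EV group.

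The promoter windows of Igf1, Igfbp4 and Igfbp6, which fell after CrOE EVs and have 1 window each, are set beside those of the receptors, whose changes from untreated cells were smaller there. Igfbp3, Igfbp5 and Igfbp7 also fell there and have 1 window each, which are described without being printed. Igf2, which also fell, has 4 annotated start windows; which start was in use is not known from gene counts, and they are described without being printed. Each is the 250 bases before the annotated start, 5' to 3' on the gene's strand, from RefSeq on GRCm38.p6; the counts were made on mm39, so these coordinates apply to the older build only. Capitals mark matches, on either strand, to 3 promoter motifs. The TATA box was searched as TATAAA. The GC box was searched as GGGCGG. The box bound by NF-Y was searched as its CCAAT letters.
Igf1, chr10:87860861-87861110 (+ strand): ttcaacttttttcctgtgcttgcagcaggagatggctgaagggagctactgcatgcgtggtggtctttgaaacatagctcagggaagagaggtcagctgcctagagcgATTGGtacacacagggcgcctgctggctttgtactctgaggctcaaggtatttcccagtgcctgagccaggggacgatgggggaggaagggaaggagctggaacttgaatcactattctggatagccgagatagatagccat
Igfbp4, chr11:99040994-99041243 (+ strand): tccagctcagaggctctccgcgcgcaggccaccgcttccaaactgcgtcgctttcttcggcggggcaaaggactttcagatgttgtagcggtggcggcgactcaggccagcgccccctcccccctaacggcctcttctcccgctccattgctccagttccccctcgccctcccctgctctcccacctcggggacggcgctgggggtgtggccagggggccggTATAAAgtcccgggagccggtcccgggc
Igfbp6, chr15:102143936-102144185 (+ strand): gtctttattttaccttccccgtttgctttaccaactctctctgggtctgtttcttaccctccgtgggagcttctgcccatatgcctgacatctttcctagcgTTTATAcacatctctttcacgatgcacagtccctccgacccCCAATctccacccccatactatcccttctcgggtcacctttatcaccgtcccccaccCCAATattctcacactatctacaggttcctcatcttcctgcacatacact
Igf1r, chr7:67952007-67952256 (+ strand): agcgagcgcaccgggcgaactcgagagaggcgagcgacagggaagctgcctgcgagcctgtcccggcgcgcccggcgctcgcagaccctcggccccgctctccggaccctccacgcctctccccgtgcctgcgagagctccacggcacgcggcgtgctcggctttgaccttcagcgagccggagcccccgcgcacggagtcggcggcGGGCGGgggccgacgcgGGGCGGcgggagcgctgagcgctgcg
Igf2r, chr17:12769707-12769956 (- strand): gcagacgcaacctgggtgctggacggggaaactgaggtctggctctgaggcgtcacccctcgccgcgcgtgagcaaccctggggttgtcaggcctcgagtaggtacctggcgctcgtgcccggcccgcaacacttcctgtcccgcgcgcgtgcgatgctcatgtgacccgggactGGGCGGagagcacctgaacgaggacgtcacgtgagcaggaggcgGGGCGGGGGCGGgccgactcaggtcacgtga
GC boxes occurred 2 times in Igf1r and 3 times in Igf2r, where 2 of them adjoin, and in none of Igf1, Igfbp4 and Igfbp6. Igfbp4 had a TATA box starting 28 bases before the start site, and Igfbp6 had one on the opposite strand, starting 148 bases before it. CCAAT boxes occurred 1 time in Igf1 and 2 times in Igfbp6. Igfbp7 had 4 GC boxes, while the windows of Igfbp3 and Igfbp5 held none of these motifs. Of 32851 windows of the same length, 32.7% held a GC box, 12.4% a TATA box and 33.8% a CCAAT box. TTCNNNGAA, the spacing bound by STAT proteins, was in 7.02% of windows and GTAAACA, a FOXO site, in 3.17%, and neither was in the windows of the members. Of the 4 windows of Igf2, 2 held none of these motifs, 1 held a GC box, and 1 held 2 GC boxes and a CCAAT box. GC boxes were thus found in windows of members that fell after CrOE EVs (Igf2, Igfbp7, Igf1r) as well as in Igf2r, which rose. A match here describes letters only.

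Igf1, the growth hormone-induced ligand, was a low transcript that fell with CrOE EVs and was not called with shCon or shCr EVs. It stood at 8.02, 6.48 and 9.12 CPM in the untreated libraries. After shCon EVs it was 7.91, 7.20 and 6.02 CPM, and after shCr EVs 8.28, 5.25 and 5.17 CPM. These 3 groups overlapped. After CrOE EVs it was 0.127, 0.145 and 0.197 CPM, from 4, 5 and 7 counts, below every other library. The fall against untreated cells was 48.8-fold, -5.61 on the log2 scale (95% interval -6.27 to -4.94, adjusted p = 2.5e-09). Against untreated cells the log2 difference was -0.16 after shCon EVs (interval -0.56 to 0.24, adjusted p = 0.527) and -0.35 after shCr EVs (interval -0.75 to 0.06, adjusted p = 0.167). The second of these became a call without shCr replicate 1, at -0.60 (adjusted p = 0.00498). Of the genes tested, 0.588% had a lower fold change than Igf1 after CrOE EVs. The same share was 0.679% for Igfbp5, 1.04% for Igf2, 4.61% for Igfbp6 and 6.55% for Igfbp4. It was 13.3% for Igfbp7, 22.2% for Igf1r, 33.9% for Igfbp3 and 64.2% for Igf2r.

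Igf2, the fetal-type ligand expressed from an imprinted locus, fell with every EV type, and furthest with CrOE EVs. Its untreated libraries held 48.5, 43.8 and 54.6 CPM. With shCon EVs it was 14.9, 16.5 and 13.0 CPM, and with shCr EVs 17.9, 15.2 and 15.1 CPM. Those groups overlapped each other and lay wholly below untreated cells. With CrOE EVs it was 1.17, 1.60 and 1.99 CPM. The log2 fold changes from untreated cells were -1.72 (SE 0.127), -1.61 and -4.93, with adjusted p-values of 4.7e-07, 7.2e-07 and 1.8e-11. shCr and shCon EVs differed by 0.12 (interval -0.16 to 0.40, adjusted p = 0.662). CrOE EVs lay 9.23-fold below shCon EVs (-3.21, adjusted p = 1.5e-09) and still further below shCr EVs (-3.32, adjusted p = 8.6e-10). In GENCODE M21, 62.8% of the exon bases of Igf2 also belong to Gm49394, a readthrough gene on the same strand, and 1.71% lie opposite Igf2os, so the counts of Igf2 are uncertain to the extent that the authors' counting split such reads.

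Igf1r was called against untreated cells with CrOE EVs alone, where it was lower, and Igf2r was higher with every EV type. Igf1r, the signalling receptor, was 137, 109 and 144 CPM in untreated cells. It was 128, 118 and 110 CPM after shCon EVs and 119, 123 and 102 CPM after shCr EVs, which overlapped untreated cells. It was 75.7, 76.0 and 68.3 CPM after CrOE EVs, below all other libraries. The last was called against untreated cells, at -0.83 (interval -1.05 to -0.60, adjusted p = 9.9e-06). The log2 differences of the others were -0.13 (adjusted p = 0.342) and -0.18 (adjusted p = 0.190). Without untreated replicate 2, the shCr difference was -0.29 (adjusted p = 0.0212).

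Igf2r, the clearance receptor, was the sole member that rose against untreated cells. Untreated libraries held 399, 389 and 435 CPM. Levels were 619, 612 and 567 CPM with shCon EVs, 579, 595 and 559 CPM with shCr EVs, and 523, 522 and 460 CPM with CrOE EVs. All 9 EV libraries were above all 3 untreated ones. The rises were 0.56, 0.50 and 0.30 on the log2 scale (adjusted p = 2.7e-05, 5.7e-05 and 0.00100). The CrOE level was below the shCon level by -0.26 (adjusted p = 0.00315) and below the shCr level by -0.20 (adjusted p = 0.0126). The latter difference lost its call without CrOE replicate 3 (-0.14, adjusted p = 0.0734). As a description of the balance between clearance receptor and ligand, the ratio of Igf2r to Igf2 in CPM was 7.97 to 8.89 in untreated libraries, 37.2 to 43.5 with shCon EVs, 32.4 to 39.1 with shCr EVs and 231 to 446 with CrOE EVs. CPM is not corrected for length, so this ratio is to be read between groups and not by its size.

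**Figure D2:**
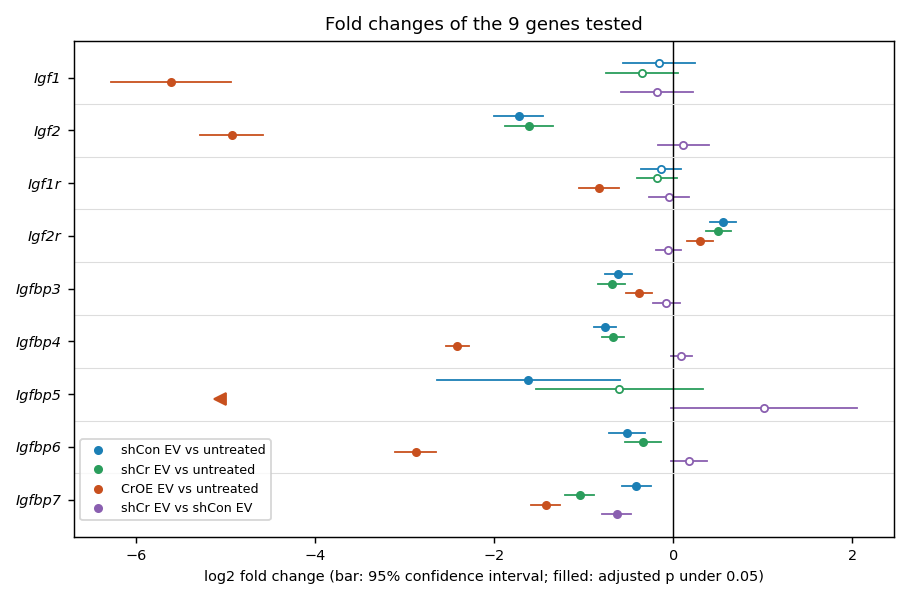
Log2 fold change (horizontal axis) of the 9 genes tested in 4 comparisons (colours), with 95% confidence intervals as bars and filled points for adjusted p-values under 0.05. The triangle is the lower bound for Igfbp5 after CrOE EVs, at least 33.3-fold lower; between shCr and shCon EVs only Igfbp7 has a filled point.

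Igfbp7, a low-affinity binding protein of the extracellular matrix, was the most abundant binding protein and was lower in every EV group than in untreated cells. Untreated libraries held 527, 457 and 551 CPM. After shCon EVs it was 390, 388 and 377 CPM, after shCr EVs 265, 245 and 236 CPM, and after CrOE EVs 176, 199 and 198 CPM. None of these 4 groups overlapped. The log2 changes from untreated cells were -0.41 (adjusted p = 0.000846), -1.04 (adjusted p = 3.5e-07) and -1.42 (adjusted p = 2.0e-09). shCr EVs left it lower than shCon EVs by -0.63 (interval -0.79 to -0.47, adjusted p = 0.000237), a 1.55-fold difference. Igfbp7 was the only member called in that comparison. Of all genes tested, 2.63% had a lower fold change there. CrOE EVs were lower than shCon EVs by -1.01 (adjusted p = 6.1e-08) and lower than shCr EVs by -0.38 (adjusted p = 0.000457). EVs of both altered donors, knockdown and overexpression, thus left Igfbp7 lower than shCon EVs did. On the opposite strand, 7.03% of its exon bases are shared with Polr2b, and whether reads were counted by strand is not given in the sources used here.

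Igfbp4, a binding protein that mostly holds IGFs back and is cut by PAPP-A, and Igfbp6, which prefers IGF2, shared an order. Both were highest in untreated cells, intermediate after shCon and shCr EVs, and lowest after CrOE EVs. Igfbp4 was 187, 178 and 175 CPM in untreated libraries, 112, 102 and 105 CPM with shCon EVs, 119, 111 and 110 CPM with shCr EVs, and 33.6, 35.8 and 32.4 CPM with CrOE EVs. Igfbp6 was 21.5, 22.0 and 20.9 CPM, then 14.2, 13.7 and 17.1 CPM, 18.7, 16.3 and 16.0 CPM, and 2.92, 2.76 and 3.09 CPM in the same order. For both genes the shCon and shCr libraries overlapped while the other groups stood apart. Igfbp4 changed by -0.76, -0.67 and -2.41 from untreated cells (adjusted p = 4.9e-07, 1.4e-06 and 1.7e-12). Igfbp6 changed by -0.52, -0.34 and -2.87 (adjusted p = 0.000745, 0.0107 and 5.4e-11). Between shCr and shCon EVs the differences were 0.09 for Igfbp4 (interval -0.03 to 0.22) and 0.18 for Igfbp6 (interval -0.02 to 0.38), neither called. After CrOE EVs the folds from untreated cells were 5.31 and 7.32.

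Igfbp3, the main carrier of IGF1 in serum, departed from that order. It was 56.8, 54.4 and 62.3 CPM in untreated cells, 38.0, 36.9 and 38.6 CPM after shCon EVs, and 37.7, 35.0 and 35.0 CPM after shCr EVs. After CrOE EVs it was 40.6, 45.8 and 46.6 CPM, between untreated cells and the other EV groups with no overlap with any. It changed by -0.61, -0.69 and -0.38 from untreated cells (adjusted p = 1.8e-05, 5.8e-06 and 0.000199). CrOE EVs left it higher than shCon EVs by 0.23 (interval 0.08 to 0.38, adjusted p = 0.00867) and higher than shCr EVs by 0.31 (adjusted p = 0.00125). It was the sole member higher with CrOE EVs than with either other EV type.

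Igfbp5, a matrix-bound binding protein, was scarce and uneven. Its counts were 123, 22 and 113 in untreated libraries, 18, 41 and 30 with shCon EVs, 60, 69 and 74 with shCr EVs, and 3, 3 and 1 with CrOE EVs. In CPM these were 4.50, 0.839 and 4.16, then 0.644, 1.36 and 1.08, then 2.12, 2.21 and 1.96, with CrOE libraries at most 0.0951. Untreated replicate 2 lay within the range of the shCon libraries, and the CrOE libraries were at the detection floor. With the floor set at 3 counts per library, the CrOE level of Igfbp5 was at least 33.3-fold lower than the untreated level. The same bound was at least 10.8-fold lower relative to shCon EVs and at least 22.0-fold lower relative to shCr EVs. With shCon EVs it was lower than in untreated cells by -1.62 (adjusted p = 0.0164). That call was lost without untreated replicate 1 (-1.29, adjusted p = 0.0770), without untreated replicate 3 (-1.37, adjusted p = 0.0694) and without shCon replicate 1 (-1.37, adjusted p = 0.0687). The shCr level differed from untreated cells by -0.60 (adjusted p = 0.304) and from shCon by 1.02 (interval -0.02 to 2.05, adjusted p = 0.234). Without untreated replicate 2 these became -1.05 (adjusted p = 0.00357) and 1.01 (adjusted p = 0.0213). Igfbp2 had 1 to 8 counts in untreated libraries, 1 to 4 with shCon EVs and 0 or 1 with shCr and CrOE EVs, and was not tested.

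To compare genes with each other, CPM was divided by exon length in kb (GENCODE M21, so approximate for counts made on mm39). On that scale Igfbp7 was the highest member in every group, at 423 ± 40.3 CPM per kb (SD, n = 3) in untreated cells, 318 ± 5.59 with shCon EVs, 206 ± 12.5 with shCr EVs and 158 ± 10.7 with CrOE EVs. In untreated cells Igf2r followed at 43.8 CPM per kb, then Igfbp4 at 40.8, Igfbp6 at 19.3, Igfbp3 at 18.5, Igf2 at 8.55, Igf1r at 7.74, Igf1 at 0.795 and Igfbp5 at 0.527. Each of the neighbouring pairs Igf2r and Igfbp4, Igfbp6 and Igfbp3, Igf2 and Igf1r, and Igf1 and Igfbp5 overlapped between libraries. Within each untreated library, Igf2r lay above Igfbp4, Igf2 above Igf1r and Igf1 above Igfbp5, while Igfbp6 and Igfbp3 changed places. With 3 libraries and approximate lengths, the order in these pairs is not settled. With transcript length in place of exon length, chosen after the data were seen, Igfbp4 came before Igf2r, Igfbp3 before Igfbp6 and Igf1r before Igf2 in untreated cells. After CrOE EVs the order was Igfbp7, Igf2r at 53.9, Igfbp3 at 14.2, Igfbp4 at 7.68, Igf1r at 4.37, Igfbp6 at 2.63, Igf2 at 0.278, Igf1 at 0.0158 and Igfbp5 at 0.0117. Only Igf1 and Igfbp5 overlapped among these neighbours. Igf1r was thus more abundant than Igf2 per length in every EV group, and Igfbp3 came ahead of Igfbp4 and Igfbp6 with CrOE EVs.

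**Figure D3:**
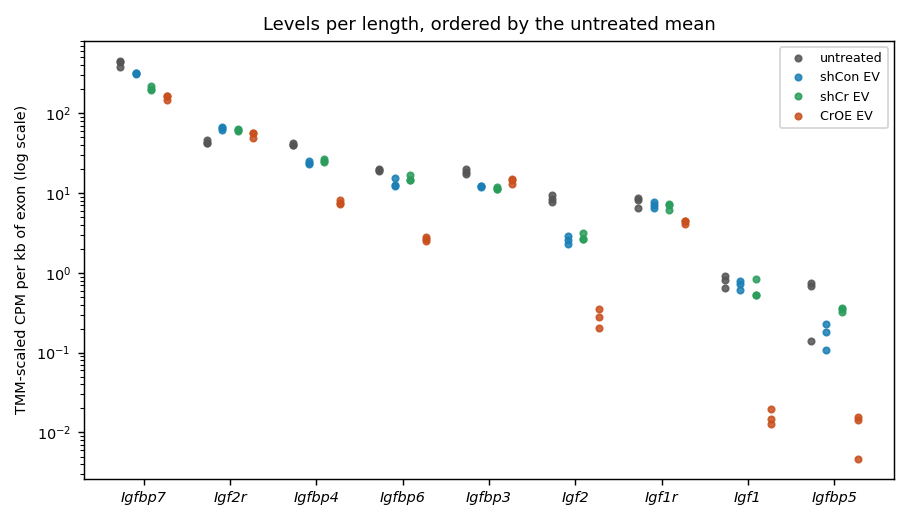
Level per kb of exon (vertical axis, TMM-scaled CPM per kb, log scale) of the 9 genes tested, ordered by the untreated mean; points are libraries, coloured by group. Igfbp7 is highest in all libraries, and the CrOE points of Igf1, Igf2, Igfbp5 and Igfbp6 lie below the other groups.

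Summed per length, binding protein transcripts were lower in every EV group than in untreated cells, while Igfbp7 kept most of the pool. The sum was 456 to 535 CPM per kb in untreated libraries, 364 to 373 with shCon EVs, 246 to 275 with shCr EVs and 169 to 190 with CrOE EVs, with no overlap between groups. Igfbp7 made up 84.2%, 86.5%, 79.6% and 86.6% of the group means in that order. Igfbp4 held 9.93% of the pool after shCr EVs and 4.21% after CrOE EVs. Igfbp3 held 3.28% to 4.44% in the other groups and 7.77% after CrOE EVs, and Igfbp6 was down to 1.44% there. These shares describe transcripts and not secreted protein, and no test was made of them.

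**Figure D4:**
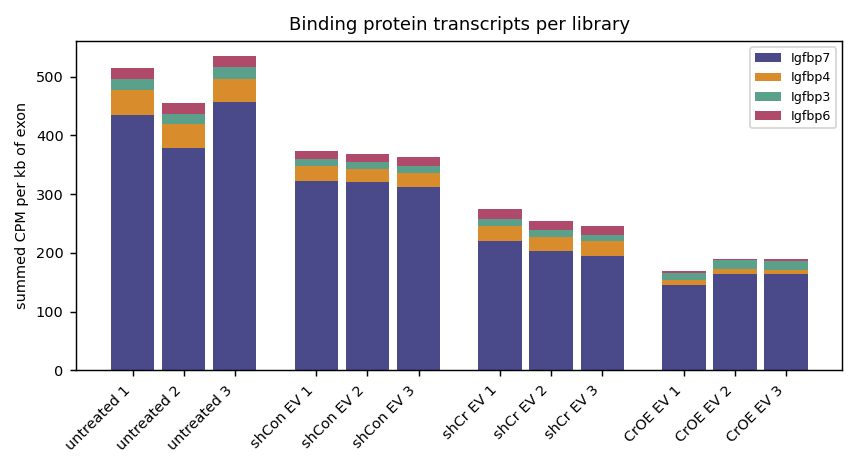
Summed transcript level of the binding proteins in each of the 12 libraries (vertical axis, CPM per kb of exon, from 0), split into Igfbp7, Igfbp4, Igfbp3 and Igfbp6; Igfbp2 and Igfbp5 are too low to be drawn. Bars go from 456 to 535 in untreated libraries to 169 to 190 in CrOE libraries, and Igfbp7 is the largest part of each.

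Genes with the most similar profiles over the 12 libraries were looked up for the 3 members with the widest range of group means among those averaging 1 or more in log2 CPM, which leaves out Igfbp5. The correlations are a description, since the 12 libraries share 4 group means. For Igf1 the closest was Brinp3 (Pearson r = 0.998), at 66.4, 61.1, 58.5 and 4.67 CPM in untreated, shCon, shCr and CrOE cells. Eno3, the muscle enolase, was closest to Igf2 (r = 0.997), at 47.1, 22.4, 22.5 and 5.96 CPM. Efemp1, a fibulin of the extracellular matrix, was closest to Igfbp6 (r = 0.997), at 88.7, 46.1, 64.4 and 2.31 CPM. Next were Ctps2 and Col4a5 for Igf1, P3h4 and Slc38a4 for Igf2, and Serpina3g and Fbxo25 for Igfbp6.

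Growth hormone acts through its receptor, JAK2 and STAT5 to switch on Igf1, and SOCS proteins and CISH damp that signal. Among the 8 genes of this axis, 1 was higher and 7 were lower than in untreated cells after shCon EVs, and likewise after shCr EVs, with medians of -0.72 and -0.80, when 38.1% and 37.3% of all genes were called. After CrOE EVs all 8 were lower, with a median of -2.23, when 73.7% of genes were called. Ghr, the receptor, was the gene that rose with shCon and shCr EVs. It was 265, 258 and 236 CPM in untreated libraries, 579, 562 and 552 CPM with shCon EVs, 603, 518 and 505 CPM with shCr EVs, and 25.3, 35.2 and 29.7 CPM with CrOE EVs. Its log2 changes from untreated cells were 1.16, 1.10 and -3.07 (adjusted p = 2.1e-06, 2.9e-06 and 4.1e-11). Socs2, a feedback inhibitor of growth hormone signalling, was 26.7, 24.4 and 22.7 CPM in untreated libraries and at most 4.54 CPM with shCon EVs, 7.62 CPM with shCr EVs and 15.6 CPM with CrOE EVs. It was the gene of this list called between shCr and shCon EVs (0.70, adjusted p = 0.00132), when 8.73% of all genes were called. It was also higher with CrOE than with shCon EVs (1.73, adjusted p = 5.7e-09). Socs3 went from 194 ± 6.59 CPM in untreated cells to 67.0 ± 0.979, 64.2 ± 2.47 and 9.83 ± 0.878 CPM (SD, n = 3), the last a log2 change of -4.30 (adjusted p = 7.1e-14).

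**Figure D5:**
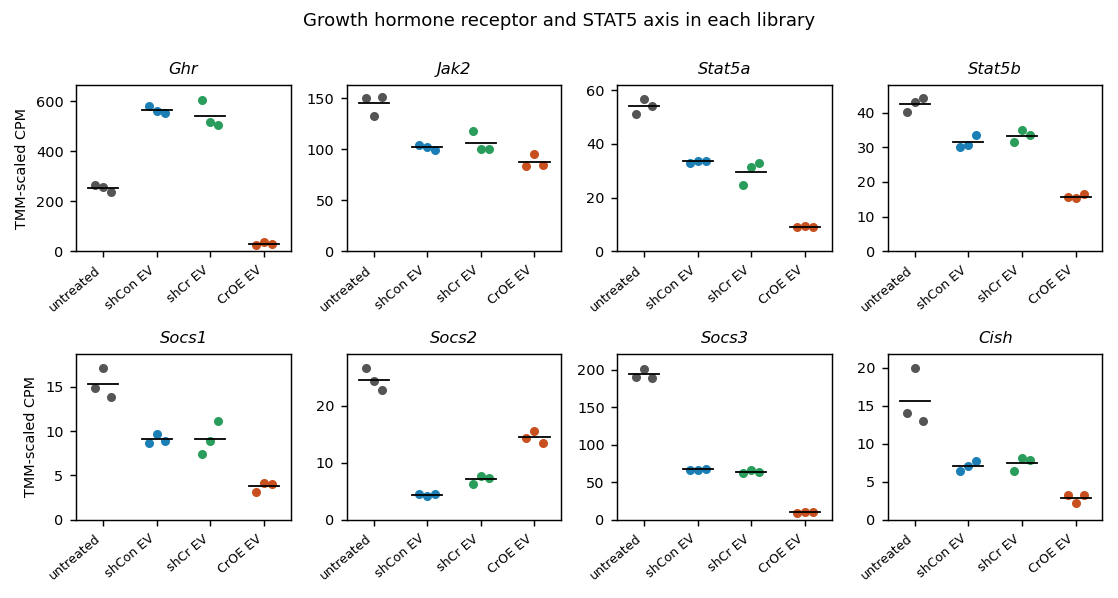
Level of the 8 genes of the growth hormone receptor and STAT5 list in each library (vertical axis, TMM-scaled CPM, own scale per panel, from 0), by group. Points are libraries and lines are means of 3 libraries; Ghr is above untreated cells with shCon and shCr EVs and below it with CrOE EVs, and the other panels are highest in untreated cells.

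The list on IGF release holds proteases that can cut binding proteins, inhibitors of those proteases and carriers of IGFs, so its counts have no single direction of action. Of 9 tested, 3 were higher, 3 lower and 3 not called after shCon EVs, 3, 2 and 4 after shCr EVs, and 3, 5 and 1 after CrOE EVs, when 38.1%, 37.3% and 73.7% of all genes were called. Stc2, a stanniocalcin that inhibits the IGFBP protease PAPP-A, rose from 7.64 ± 0.850 CPM in untreated cells to 16.9 ± 0.650, 17.6 ± 0.807 and 41.6 ± 1.41 CPM (SD, n = 3) with shCon, shCr and CrOE EVs. These were log2 rises of 1.14, 1.20 and 2.44 (adjusted p = 3.6e-07, 2.0e-07 and 1.9e-11). Stc1, its paralog, fell from 30.9 CPM to 5.58, 8.02 and 10.4 CPM, by -2.47, -1.95 and -1.58. The pair thus moved in opposite directions with every EV type. Pappa, the gene of PAPP-A, was higher with CrOE EVs than in untreated cells, at 19.5 against 7.88 CPM (1.31, adjusted p = 7.3e-06). Adamts1, a matrix protease, fell from 771 CPM to 509, 605 and 138 CPM (-0.60, -0.35 and -2.48, all called). Pappa2, a related protease, was higher with shCr than with shCon EVs, at 8.14 against 5.25 CPM (0.63, adjusted p = 0.00642). Pappa was lower there, at 8.94 against 14.0 CPM (-0.66, adjusted p = 0.0219), a call lost without shCon replicate 1 (adjusted p = 0.0937), shCon replicate 2 (0.0773), shCr replicate 2 (0.0682) or shCr replicate 3 (0.0653). A model of those groups alone also lost the Pappa call (adjusted p = 0.0641). Between shCr and shCon EVs, 5 of the 9 were called, when 8.73% of all genes were, but 1 was without shCon replicate 1, 3 without shCon replicate 2 and 2 in a model of those groups alone.

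Downstream of the receptor, 12 of 30 signalling genes were called after shCon EVs and 13 after shCr EVs, a share near that of all genes. After shCon EVs 8 were higher and 4 lower, after shCr EVs 6 and 7, and after CrOE EVs 8 and 11. Of all genes, 38.1%, 37.3% and 73.7% were called in these comparisons. Irs1, the adaptor that links IGF1R to PI3-kinase, rose from 53.5 ± 6.98 CPM to 107 ± 4.84 and 99.1 ± 3.89 CPM with shCon and shCr EVs and was 15.1 ± 0.431 CPM with CrOE EVs (SD, n = 3). Its log2 changes were 1.00, 0.89 and -1.82 (adjusted p = 1.0e-06, 2.6e-06 and 6.1e-10). Grb10 and Grb14 encode related adaptors that restrain insulin and IGF receptors, and they went opposite ways with CrOE EVs. Grb10 went from 351 CPM in untreated cells to 606 CPM (0.79, adjusted p = 1.1e-08), and Grb14 from 103 to 12.6 CPM (-3.02, adjusted p = 4.0e-13). Both were lower with shCr than with shCon EVs, by -0.38 (adjusted p = 0.000447) and -0.43 (adjusted p = 0.000382). Pik3cb, a PI3-kinase catalytic subunit, was 38.5 CPM with CrOE EVs and 21.1 CPM in untreated cells (0.87, adjusted p = 2.4e-08). Ptpn1, a phosphatase that acts on these receptors, fell after all EV types, by -0.53, -0.48 and -0.67. Pik3r1, a PI3-kinase regulatory subunit, was higher with shCr than with shCon EVs (0.33, adjusted p = 0.0172), a call lost without shCon replicate 2 (adjusted p = 0.0806) or shCon replicate 3 (adjusted p = 0.0851). A model of those groups alone also lost the Pik3r1 call (adjusted p = 0.0510).

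FOXO transcription factors are held in the cytoplasm by IGF signalling, and 12 of their known target genes were counted. After shCon EVs 4 were higher and 2 lower, after shCr EVs 5 and 1, and after CrOE EVs 6 and 4, with medians of 0.17, 0.17 and 0.26, when 38.1%, 37.3% and 73.7% of all genes were called. Bcl6, a transcriptional repressor, rose with every EV type, by 0.91, 0.82 and 1.39. Sesn3, a sestrin, fell with every EV type, by -0.67, -0.62 and -1.73, from 228 ± 45.9 CPM in untreated cells (SD, n = 3). Its shCr libraries, at up to 177 CPM, overlapped the untreated ones, of which the lowest was 175 CPM. Cited2, a transcriptional co-regulator, was 71.7 CPM in untreated cells and 283 CPM with CrOE EVs (1.98, adjusted p = 2.3e-11). Pik3ip1, a PI3-kinase inhibitor, went from 65.3 to 6.32 CPM with CrOE EVs (-3.36, adjusted p = 1.2e-11). The targets did not move one way. Between shCr and shCon EVs, edgeR called 0 of the 12, when 8.73% of all genes were called. Of the 12, 2 had an unadjusted p-value under 0.05 and DESeq2 called 1.

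Of 10 genes tied to the control of Igf2 and Igf2r, 7 were measured and tested. After shCon EVs 2 were higher and 3 lower, and 3 in all were called without untreated replicate 3 or without shCon replicate 1. After shCr EVs the counts were 2 and 4, and after CrOE EVs 3 and 2. Of all genes, 38.1%, 37.3% and 73.7% were called in the same comparisons. Igf2bp2, which binds Igf2 mRNA, rose from 314 CPM to 432 and 445 CPM with shCon and shCr EVs (0.46 and 0.50) and fell to 217 CPM with CrOE EVs (-0.53, adjusted p = 1.3e-06). Its paralog Igf2bp3 fell with every EV type, by -0.43, -0.43 and -0.77. Hmga2, a chromatin protein that raises Igf2bp2, fell by -0.45 and -0.46 with shCon and shCr EVs and was higher by 0.19 (adjusted p = 0.00638) with CrOE EVs. Ctcf, the insulator protein of the imprinted Igf2 locus, was 75.7 CPM in untreated cells and 90.8 CPM with CrOE EVs (0.26, adjusted p = 0.000190). In the comparison of shCr with shCon EVs, edgeR called 0 of the 7, when 8.73% of all genes were called. Of the 7, 1 had an unadjusted p-value under 0.05 and DESeq2 called 0.

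Other secreted proteins with an IGFBP-type domain, among them the CCN family, were also mixed. Of 9 tested, 2 were higher and 5 lower after shCon EVs, 1 and 4 after shCr EVs, and 2 and 6 after CrOE EVs, when 38.1%, 37.3% and 73.7% of all genes were called. Wisp1 (CCN4), a matricellular protein, was 43.2 ± 3.78 CPM in untreated cells, 65.8 ± 1.98 with shCon EVs, 30.3 ± 2.53 with shCr EVs and 136 ± 2.69 with CrOE EVs (SD, n = 3). It rose with shCon and CrOE EVs (0.61 and 1.65) and fell with shCr EVs (-0.51, adjusted p = 0.000125), and shCr EVs lay below shCon EVs by -1.12 (adjusted p = 3.0e-06). Wisp2 (CCN5) fell in all 3, by -0.48, -0.96 and -1.09, and by -0.48 between shCr and shCon EVs (adjusted p = 0.000270). Htra3, a protease with this domain, was 8.48 CPM in untreated cells, 5.49 and 9.05 CPM with shCon and shCr EVs, and 0.289 CPM with CrOE EVs (-4.87, adjusted p = 3.0e-11). Nov (CCN3), which antagonises other CCN proteins, fell from 54.8 to 7.61 CPM with CrOE EVs (-2.85, adjusted p = 9.0e-13). It was higher with shCr EVs (0.18, adjusted p = 0.0255), a call lost without untreated replicate 1 (adjusted p = 0.134), untreated replicate 3 (adjusted p = 0.132) or shCr replicate 2 (adjusted p = 0.0734). The call was also lost with no low-count filter (adjusted p = 0.0827) and in a model of those groups alone (adjusted p = 0.117). Cyr61 (CCN1), a matricellular protein, fell by -0.74 and -0.60 with shCon and shCr EVs (adjusted p = 1.5e-05 and 6.8e-05) and differed by -0.10 with CrOE EVs (adjusted p = 0.282). With shCr against shCon EVs, 2 of the 9 were called higher, 3 were called lower and 4 were not called. Of all genes, 5.22% were called higher there and 3.51% lower (8.73% in all).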

How the data were processed

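Bulk poly(A) RNA of 12 libraries was analysed, 3 in each of 4 groups. The values the authors deposited are estimated counts for each gene symbol, unscaled; per the submitters' processing notes featureCounts and mm39 were used, with no version given. The annotation and use of strand are not given in the sources used here. Between 38.7% and 41.4% of a library's values were not whole. Columns headed with CRIPTO's name alone were matched to CrOE by elimination.

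Counts were rounded, filtered with filterByExpr (14279 of 32544 rows kept), scaled by TMM and tested in R 4.3.3 with the quasi-likelihood F-test of edgeR 4.0.16, 1 mean per group, 8 residual degrees of freedom, Benjamini-Hochberg adjustment over all genes tested, and a call at an adjusted p-value under 0.05. The script was tested on simulated data. A group with at most 3 counts in every library was at the detection floor, which covers counting error only. CPM is TMM-scaled. Exon lengths came from GENCODE M21 and promoters from RefSeq; a promoter was found for all 10 members. Members, gene lists and tests were chosen with earlier results of these data known. From each pathway list the text names, per comparison, the call with the largest rise and with the largest fall among genes whose groups did not overlap and whose average log2 CPM was at least 1. For the 3 members with the widest range of group means and an average log2 CPM of at least 1, the 3 genes of highest correlation were named among genes with average log2 CPM of at least 3.

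Alternatives were other size factors, no TMM, DESeq2 1.42.0, no filter, at least 10 counts in every library, a replicate block, each library left out, only the 2 groups compared, and a fold of at least 2. Protein sequences were not used here.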

Additional observations from a re-analysis of the deposited data

How the results depend on the processing

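Of 1014 alternative fits of a member in a comparison, 1006 kept their side of the threshold and 8 changed side. Where the main or the alternative fit was called, 0 reversed direction. Among differences not called, direction could change: Igf1r between shCr and shCon EVs ran from -0.108 to 0.0295. The 8 that changed side, all from leaving out 1 library, are given with their genes above. Median-of-ratios scaling, library totals, DESeq2, both filters, the replicate block and fits to only the 2 groups compared, which for 3 comparisons leaves out the CrOE libraries, changed no call of a member they tested; at least 10 counts in every library leaves Igf1 and Igfbp5 untested. Under median-of-ratios scaling or library totals, the median log2 fold change of all genes was at most 0.014 in absolute size. Replicate numbers showed no clear pairing of the libraries, though 3 libraries per group cannot exclude it. The correlation of same-numbered deviations was -0.204 to 0.315, over 0.1 in 4 of 18 pairs. Of 12 libraries, 5 correlated best with their own number. With the replicate block 1281 genes were called between shCr and shCon EVs, against 1247 without it.

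A fold of at least 2 left 2 members after shCon EVs, 2 after shCr EVs, 0 between shCr and shCon EVs and 5 between CrOE and shCr EVs; the genes called were then 863 and 897 against untreated cells, 4245 for CrOE EVs, 108 between shCr and shCon EVs, 3884 between CrOE and shCon EVs and 4223 between CrOE and shCr EVs. Leaving out 1 library gave 1 to 2 members and 632 to 1396 genes called between shCr and shCon EVs, with 688, 632 and 666 genes without shCon replicate 1, 2 and 3; a model of only those groups gave 641 genes. In the IGF release list that comparison gave 1 to 5 calls without 1 library and 2 with only the groups compared. The receptor signalling list gave 8 calls for shCr EVs against untreated cells with only the groups compared. For FOXO targets between shCr and shCon EVs, no filter, at least 10 counts and DESeq2 each gave 1 call, the replicate block gave 2, and leaving out 1 library gave 0 to 1. The Igf2 and Igf2r control list after shCon EVs gave 3 calls with no filter and 3 to 6 without 1 library. Of 3072 alternatives for the named pathway genes, 40 lost a call and 6 gained one.

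At 4 to 7 counts per library for Igf1 and at most 3 for Igfbp5 after CrOE EVs, the size of these falls is poorly set by the depth.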
